A study of Mus musculus with 9 samples.

Results

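Transcripts of glycolysis and lactate dehydrogenase genes were followed in mouse prostate epithelial cells of a line with both Rb alleles lost (Rb-/- in the labels, called Rb-null here) and of a wild-type line. The members were chosen by symbol, as every probe set that the platform annotation gives to Slc2a1, Hk1, Hk2, Pfkl, Aldoa, Tpi1, Pgk1, Eno1, Ldha or Ldhb alone. This rule found 12 probe sets for 9 of the 10 genes, out of 12422 probe sets on the array, and Eno1 was not analysed here. The 4 groups were Rb-null cells kept for 48 hours in RPMI-1640 without fetal bovine serum (2 arrays), Rb-null cells in RPMI-1640 with 5% fetal bovine serum (2 arrays), wild-type cells without serum for 48 hours (2 arrays) and wild-type cells with 5% serum (3 arrays). Each genotype was 1 cell line, so a genotype difference here is a difference between these lines. Whether replicate arrays stand for separate cultures is not in the labels, and the p-values therefore measure only the spread between arrays, which may be technical.

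Glycolysis turns glucose into pyruvate in the cytosol and yields ATP and NADH. Glucose enters through transporters such as the Slc2a1 product GLUT1, is trapped by hexokinases, is split into triose phosphates by phosphofructokinase, aldolase and triosephosphate isomerase, and is carried on by phosphoglycerate kinase and later enzymes. Lactate dehydrogenase is a tetramer of the Ldha product (the M subunit) and the Ldhb product (the H subunit). It converts pyruvate and lactate into each other. Tetramers rich in M subunits are known from skeletal muscle and from fast-growing cells, and tetramers rich in H subunits from heart. Many genes of the pathway are known targets of HIF-1 and Myc, and prostate epithelium is known for its unusual citrate metabolism.

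Intensities are in the array's linear units after quantile normalization between arrays, and differences are on the log2 scale with their standard error (SE). The median deposited intensity of the arrays lay between 445 and 474 and the upper quartile between 991 and 1153. The first wild-type serum array stood apart: its Spearman correlation with the other wild-type serum arrays was 0.984 and 0.986 over all probe sets, against 0.997 between those. Rb1, the gene named in the line's label, had deposited intensities of 166 and 160 in Rb-null cells without serum and 113 and 112 in Rb-null cells with serum, against 383 and 361 in wild-type cells without serum and 713, 406 and 369 with serum. All 4 Rb-null readings lay under the floor of 197 that stood in for a limit of detection, and the log2 difference of Rb1 between the lines averaged over media, -1.10 (limma adjusted p = 0.000923), is therefore a lower bound of its size. Of 12 epithelial markers 11 lay above the floor on all 9 arrays, with a summed level of 55693 to 60005 in Rb-null cells and 54632 to 61161 in wild-type cells. Averaged over media 8 of 11 tested epithelial markers did not pass between the lines. Dsp was 2.33-fold higher in the Rb-null line (limma adjusted p = 1.96e-05), and Cldn7 (-0.27, adjusted p = 0.000294) and Cldn3 (-0.22, adjusted p = 0.00617) were lower. Of 7 basal prostate markers 6 lay above the floor on all arrays. Of these Lamb3 (1.48-fold, adjusted p = 0.000214) and Itgb4 (1.10-fold, adjusted p = 0.0437) were higher in the Rb-null line, and 4 did not pass. Of 7 luminal prostate markers 5 had a probe set and 3 of these lay above the floor throughout, while the probasin gene Pbsn was at the floor on all arrays. The summed level of the luminal list was 2174 to 2481 in Rb-null cells against 1336 to 1539 in wild-type cells, without overlap, and its gene Foxa1 was 3.94-fold higher in the Rb-null line averaged over media (limma adjusted p = 1.43e-05). The leukocyte markers Ptprc and Lyz2, the smooth muscle markers Acta2, Myh11 and Cnn1, the mesenchymal markers Vim and Pdgfrb and the endothelial markers Tek and Tie1 were at the floor on every array. Above it on all 9 arrays lay 2 of 5 leukocyte markers with a probe set (Cd68 and Csf1r), 3 of 6 smooth muscle markers (Des, Tagln and Actg2), 5 of 7 mesenchymal markers (Col1a1, Col1a2, Col3a1, Dcn and Pdgfra) and 2 of 5 endothelial markers (Pecam1 and Kdr). So did 3 of 5 skeletal muscle and liver markers (Myh4, Ckm and Alb) and 2 of 2 erythroid markers with a probe set (Hba-a1 and Alas2). A reading above the floor alone therefore does not show that a cell type was present. The summed level of the smooth muscle list was 5440 to 5909 in Rb-null cells against 7347 to 8580 in wild-type cells. It was 2589 to 2807 against 3052 to 3680 for the neuroendocrine list, 1579 to 1733 against 1767 to 2082 for the endothelial list, and 1384 to 1436 against 1461 to 1554 for the leukocyte list. The summed levels of these lists and of the luminal one thus differed between the lines. In 3 lists the widest gap was that of a single gene, given as geometric means without and with serum. Foxa1 was at 877 and 1169 in Rb-null cells against 205 and 321.5 in wild-type cells. Uchl1 (neuroendocrine) was at 1276 and 1257 against 1963 and 1778. Actg2 (smooth muscle), by a probe set that can hybridise to related transcripts, was at 4084 and 3930 against 5921 and 6223. The part of these lists in the results below was not tested. In bulk RNA fewer cells of a type and less RNA per cell cannot be told apart.

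Of the 12 member probe sets 10 lay above the floor on at least 2 arrays and were tested, 1 for each of 8 genes and 2 for Aldoa. The second Ldhb probe set and the second Hk2 probe set stayed under the floor on all 9 arrays and were not tested. Averaged over both media, 1 tested member was higher and 5 were lower in the Rb-null line, which is 60.0% of the 10, where 45.2% of all 9686 tested probe sets passed the same threshold of an adjusted p under 0.05. This split depended on the scaling: with the deposited values 5 members were higher and 3 lower (background 40.6%), and after scaling to a common array median 4 were higher and 4 lower (background 42.7%). In serum 5 members were lower and none higher (background 23.6%), and without serum 2 were higher and 2 lower (background 30.7%). All these counts are of probe sets, and the 2 of Aldoa count separately. The calls averaged over media thus came from 5 genes and those in serum from 4. On serum withdrawal 2 members rose and 1 fell in Rb-null cells (background 13.9%), and 2 fell in wild-type cells (background 15.9%). No member passed in the test of the difference between the lines' responses to withdrawal, the interaction, where 0.929% of all probe sets did. Without the first wild-type serum array 6 members passed averaged over media (background 62.9%), 7 in serum (45.3%), 5 without serum (51.6%), 4 on withdrawal in Rb-null cells (23.6%), 4 in wild-type cells (20.3%) and 1 in the interaction (2.64%). The median member difference was -0.11 averaged over media, against -0.05 over all tested probe sets, and -0.15 against 0.05 for withdrawal in wild-type cells. The genotype comparisons share arrays with each other and with the withdrawal comparisons, so they are not separate evidence. Another scaling of the arrays moves the split of calls over the whole array: 48.1% of those averaged over media were higher in the Rb-null line here, against 69.3% with the deposited values and 60.7% after scaling to a common array median. In serum these shares were 55.9%, 73.4% and 68.0%, and without serum 54.8%, 77.6% and 68.1%. For withdrawal in wild-type cells 41.7% of the calls were higher without serum, against 25.7% as deposited, while in Rb-null cells the share was 53.9% and 44.4%.

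**Figure D1:**
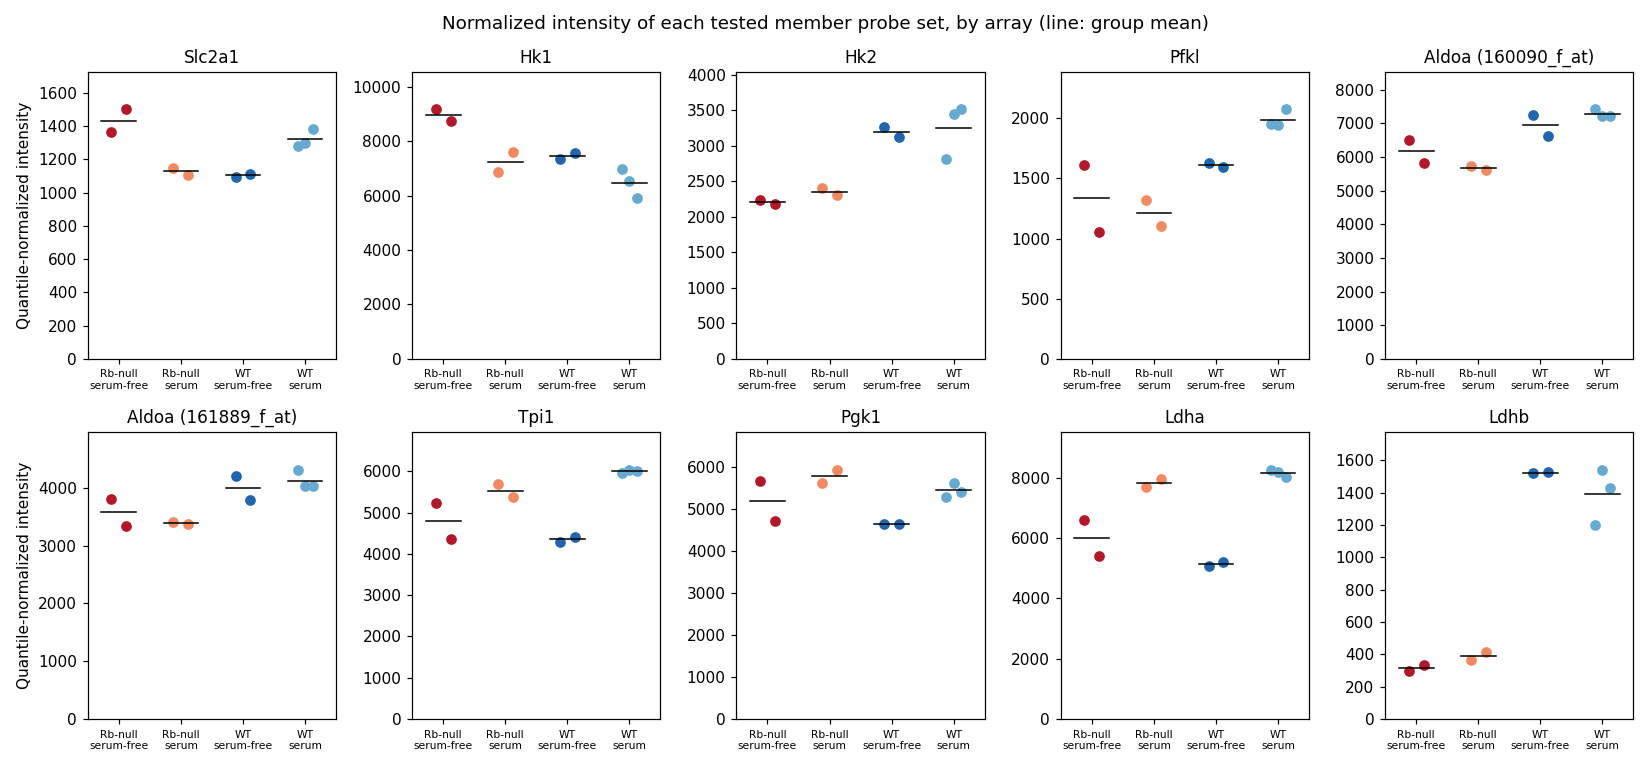
Quantile-normalized intensity (vertical axes, linear, starting at 0) of the 10 tested member probe sets on each of the 9 arrays, by group, with a line at each group mean. The Ldhb readings of the Rb-null line (299 to 412) lie far under those of the wild-type line (1198 to 1542), while the Ldha readings separate by medium (5068 to 6609 without serum, 7687 to 8272 with serum).

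The widest change of Ldha went with the medium, and that of Ldhb with the line. Ldha read 6609 and 5412 in Rb-null cells without serum, 7687 and 7968 in Rb-null cells with serum, 5068 and 5205 in wild-type cells without serum, and 8272, 8178 and 8024 in wild-type cells with serum. Every array without serum lay below every array with serum, in both lines. Within each medium the Ldha readings of the lines did not overlap either. Those of Rb-null cells were the lower with serum and the higher without. Ldha fell by 0.67 ± 0.076 (SE) on withdrawal in the wild-type line, to 0.630 of its level in serum (limma, adjusted p = 0.000374), and by 0.39 ± 0.083 in the Rb-null line (adjusted p = 0.0134). The wild-type call held under all 18 alternative settings, with values of -0.78 to -0.65. The Rb-null value ran from -0.54 to -0.24, and its call was lost in 4 of 18 settings, with an adjusted p of up to 0.118. It was lost without either of the Rb-null serum arrays (adjusted p = 0.0662 and 0.107). The interaction for Ldha was 0.28 ± 0.11 with an adjusted p of 0.404, so a difference between the lines in this response was not shown. Between the lines Ldha differed by 0.08 ± 0.056 averaged over media (adjusted p = 0.267). This averaged value depended on the scaling. It passed with the values as deposited (0.19, adjusted p = 0.0187) and after scaling to a common array median (0.16, adjusted p = 0.0414). The line difference of Ldha was -0.06 in serum and 0.22 ± 0.083 without serum (adjusted p = 0.0705). This last value passed under 4 of 18 settings, among them without the first wild-type serum array (0.22, adjusted p = 0.0439), without the second Rb-null serum-free array (0.37, adjusted p = 0.00587) and with the values as deposited (0.32, adjusted p = 0.0139).

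Ldhb showed the widest genotype difference among the members. Its tested probe set read 299 and 337 in Rb-null cells without serum and 366 and 412 in Rb-null cells with serum, against 1519 and 1526 in wild-type cells without serum and 1198, 1542 and 1427 in wild-type cells with serum. The lines did not overlap in either medium. Averaged over media Ldhb was lower in the Rb-null line, with a log2 difference of -2.05 ± 0.088, a level 0.242 of that in the wild-type line (adjusted p = 2.97e-07). The Rb-null readings lay within the span of the group means of the liver and muscle markers Alb and Ckm (235 to 454). What part of these Ldhb readings is background was not tested, so the size of the difference is uncertain. The difference was -1.83 ± 0.12 in serum (adjusted p = 1.01e-05) and -2.26 ± 0.13 without serum (adjusted p = 4.76e-06). The averaged value ran from -2.09 to -1.95 over 17 alternative settings and passed in each, and the single-medium calls passed in all 18 of theirs. Withdrawal gave -0.29 ± 0.13 in the Rb-null line (adjusted p = 0.21) and 0.14 ± 0.12 in the wild-type line (adjusted p = 0.482), neither past the threshold. Without the first wild-type serum array the Rb-null value passed, at an adjusted p of 0.0427. The second Ldhb probe set, with deposited intensities of 64 to 83 on all arrays, gave no reading of its own.

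The level of one probe set cannot be set against that of another, so only the change of the Ldha minus Ldhb difference between groups is read. This log2 difference was 4.47 and 4.01 in Rb-null cells without serum and 4.39 and 4.27 in Rb-null cells with serum, against 1.74 and 1.77 in wild-type cells without serum and 2.79, 2.41 and 2.49 in wild-type cells with serum. The Rb-null arrays all lay above the wild-type arrays, and within the wild-type line the serum-free arrays lay below the serum arrays. The balance thus stood 5.59-fold further towards Ldha in the Rb-null line without serum and 3.41-fold further with serum. Both folds rest on the low Rb-null Ldhb readings, whose background part was not tested. Withdrawal moved it by -0.81 log2 in wild-type cells, from the fall of Ldha with Ldhb at 0.14, and by -0.10 in Rb-null cells, where the readings overlapped. The SD of the Rb-null serum-free pair was 0.32, the widest of the 4 groups, and leaving out 1 of its arrays moved the Rb-null withdrawal value between -0.34 and 0.13.

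**Figure D2:**
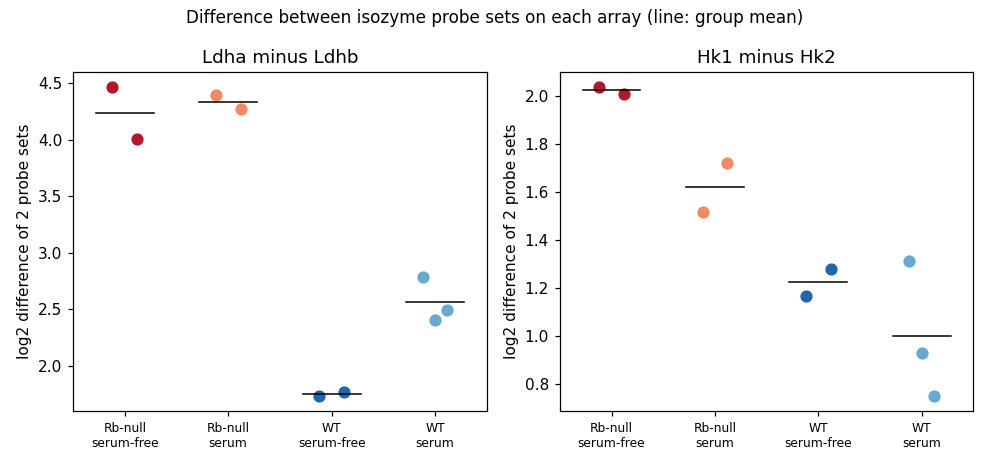
Log2 difference between the probe sets of an isozyme pair on each array (vertical axes, log2 units, not starting at 0), by group, with a line at each group mean: Ldha minus Ldhb at left and Hk1 minus Hk2 at right. For both pairs all Rb-null points lie above all wild-type points, with group means of 4.24 and 4.33 in Rb-null cells against 1.75 and 2.56 in wild-type cells for the lactate dehydrogenases.

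The promoter windows of these genes are shown because Ldha and Tpi1 were the members that fell on withdrawal in the wild-type line, and Ldhb and Hk2 were lower in the Rb-null line in both media. Each is the 250 bases upstream of an annotated start in RefSeq (GRCm38.p6), read on the gene's strand, with capitals marking ACGTG, the core of the hypoxia response element and of many E-boxes, or GCGTG, on either strand. The windows lie at chr7:46845554-46845803 (+ strand) for the first of the annotated Ldha starts, chr6:142507958-142508207 (- strand) for Ldhb, chr6:124814159-124814408 (- strand) for Tpi1 and chr6:82774455-82774704 (- strand) for Hk2.
Ldha: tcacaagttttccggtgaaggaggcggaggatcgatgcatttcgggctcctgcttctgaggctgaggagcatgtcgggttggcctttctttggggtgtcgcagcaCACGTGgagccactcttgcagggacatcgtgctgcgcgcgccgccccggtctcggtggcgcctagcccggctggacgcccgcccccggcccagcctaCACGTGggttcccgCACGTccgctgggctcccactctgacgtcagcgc
Ldhb: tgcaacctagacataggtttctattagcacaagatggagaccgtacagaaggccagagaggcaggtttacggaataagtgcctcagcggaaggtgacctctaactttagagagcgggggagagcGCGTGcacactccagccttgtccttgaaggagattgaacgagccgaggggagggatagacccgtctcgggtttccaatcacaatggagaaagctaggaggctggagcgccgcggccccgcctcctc
Tpi1: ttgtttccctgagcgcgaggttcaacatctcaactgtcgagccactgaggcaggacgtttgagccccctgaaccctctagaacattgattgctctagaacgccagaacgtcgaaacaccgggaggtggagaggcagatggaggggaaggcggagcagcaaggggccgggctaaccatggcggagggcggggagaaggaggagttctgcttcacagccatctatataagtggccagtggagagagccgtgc
Hk2: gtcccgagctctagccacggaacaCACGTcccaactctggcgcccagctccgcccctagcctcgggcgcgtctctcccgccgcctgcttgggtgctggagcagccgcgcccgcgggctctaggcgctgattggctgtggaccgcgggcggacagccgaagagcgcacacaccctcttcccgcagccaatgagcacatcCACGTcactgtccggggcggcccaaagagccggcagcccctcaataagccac
The Ldha window held 5 matches to ACGTG, 4 of them from the 2 palindromes CACGTG, which begin at positions -145 and -48 counted from the start site, and the other at -34. The window of the second annotated Ldha start, not shown, held 0 matches to ACGTG and 1 to GCGTG. The Ldhb window held no ACGTG and 1 match to GCGTG, at -126. The Tpi1 window held neither motif. The Hk2 window held 2 matches to ACGTG, at -226 and -52. Over all 32851 windows of this length 16.6% held ACGTG, 28.2% GCGTG and 6.02% CACGTG, so a match is common and describes the sequence only. None of the 13 windows of the 9 member genes held an E2F octamer (TTTCCCGC, TTTCGCGC, TTTGCCGC or TTTGGCGC on either strand), which 1.86% of all windows did.

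At the entry of the pathway, the glucose transporter gene Slc2a1 rose on withdrawal in the Rb-null line, while its wild-type value was negative and short of the threshold. It read 1364 and 1501 in Rb-null cells without serum and 1149 and 1105 in Rb-null cells with serum, against 1094 and 1112 in wild-type cells without serum and 1279, 1301 and 1383 in wild-type cells with serum. In Rb-null cells the serum-free arrays lay above the serum arrays, and in wild-type cells below them, with no overlap in either line. Slc2a1 rose by 0.34 ± 0.085 in the Rb-null line (adjusted p = 0.0255), and the wild-type value was -0.26 ± 0.078 (adjusted p = 0.0526). The interaction was 0.60 ± 0.12 with an adjusted p of 0.0524, just short of the threshold. It passed under 4 of 17 settings, among them without the first wild-type serum array (0.62, adjusted p = 0.0148), and ran from 0.53 to 0.68 over all of them. Between the lines Slc2a1 was higher in Rb-null cells without serum (0.37 ± 0.085, adjusted p = 0.0113), was at -0.23 ± 0.078 in serum (adjusted p = 0.0624), and differed by 0.07 averaged over media (adjusted p = 0.32). The Rb-null withdrawal call was lost in 4 of 18 settings and the call without serum in 3 of 18.

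The hexokinase genes, whose products phosphorylate glucose, differed between the lines in opposite directions. Hk2, the inducible isozyme, read 2239 and 2173 in Rb-null cells without serum and 2398 and 2312 in Rb-null cells with serum, against 3266 and 3124 in wild-type cells without serum and 2808, 3440 and 3513 in wild-type cells with serum. The lines did not overlap in either medium. Hk2 was lower in the Rb-null line, at -0.50 ± 0.071 averaged over media (adjusted p = 0.000582), -0.46 ± 0.096 in serum (adjusted p = 0.00805) and -0.53 ± 0.10 without serum (adjusted p = 0.00583). The averaged call held under all 17 settings, from -0.55 to -0.30. The serum call was lost without either Rb-null serum array (adjusted p = 0.0512 and 0.0811) and with only the groups compared (adjusted p = 0.0531), and the serum-free call without the first wild-type serum-free array (-0.50, adjusted p = 0.0531). Withdrawal gave -0.09 in Rb-null cells (adjusted p = 0.706) and -0.02 in wild-type cells (adjusted p = 0.913). Hk1, the constitutive isozyme, read 9178 and 8747 in Rb-null cells without serum and 6865 and 7615 with serum, against 7335 and 7588 in wild-type cells without serum and 6983, 6548 and 5918 with serum. Its lines overlapped across the media but not without serum. Hk1 was higher in the Rb-null line by 0.21 ± 0.055 averaged over media (adjusted p = 0.0128) and by 0.26 ± 0.082 without serum (adjusted p = 0.0373), and it rose on withdrawal in Rb-null cells by 0.31 ± 0.082 (adjusted p = 0.0338). These calls depended on the setting: the averaged call was lost in 3 of 17 settings, the serum-free call in 7 of 18 and the withdrawal call in 12 of 18. The Hk1 minus Hk2 difference was 2.04 and 2.01 in Rb-null cells without serum and 1.52 and 1.72 in Rb-null cells with serum, against 1.17 and 1.28 in wild-type cells without serum and 1.31, 0.93 and 0.75 in wild-type cells with serum. The balance stood 1.74-fold further towards Hk1 in Rb-null cells without serum and 1.54-fold further with serum.

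**Figure D3:**
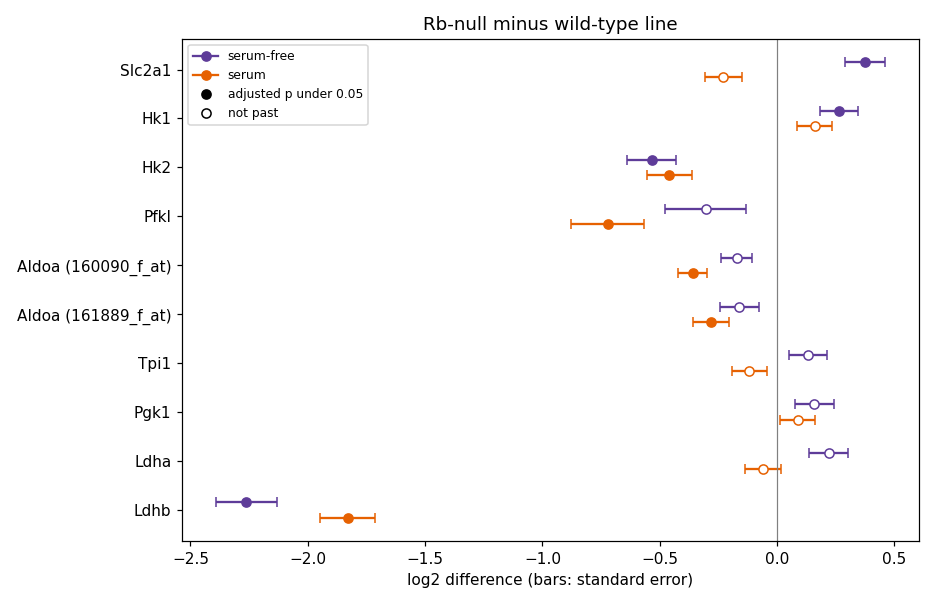
Log2 difference between the lines, Rb-null minus wild-type, for the 10 tested member probe sets (horizontal axis, log2 units, bars for the SE), without serum and with serum, filled where the adjusted p was under 0.05. Ldhb lies apart at -2.26 and -1.83, Hk2 is filled in both media, and Slc2a1 and Hk1 are filled on the higher side without serum.

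Of the members that act on sugar phosphates, Pfkl and Aldoa were lower in the Rb-null line in serum. Pfkl, the liver-type phosphofructokinase, read 1613 and 1055 in Rb-null cells without serum and 1316 and 1102 with serum, against 1630 and 1592 in wild-type cells without serum and 1949, 1943 and 2075 with serum. In serum the lines did not overlap, and without serum 1 Rb-null array lay between the wild-type readings and the other below both. Pfkl was lower in the Rb-null line, at -0.72 ± 0.16 in serum (adjusted p = 0.00977) and -0.51 ± 0.12 averaged over media (adjusted p = 0.00668). The serum call was lost without the second Rb-null serum array (-0.59, adjusted p = 0.113) and the averaged call with the values as deposited (-0.33, adjusted p = 0.0599). Without serum the value was -0.30 ± 0.17 (adjusted p = 0.19), and it rested on the pair of Rb-null arrays: it was -0.61 without the first (adjusted p = 0.0174) and 0.00 without the second.

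Aldoa, the main aldolase of most tissues, had 2 probe sets, both of a kind that can hybridise to related transcripts. The brighter read 6504 and 5824 in Rb-null cells without serum and 5733 and 5616 with serum, against 7260 and 6627 in wild-type cells without serum and 7419, 7213 and 7213 with serum. All Rb-null arrays lay below all wild-type arrays. It was lower in the Rb-null line, at -0.27 ± 0.046 averaged over media (adjusted p = 0.00159) and -0.36 ± 0.062 in serum (adjusted p = 0.00312), and both calls held in every alternative setting run. The dimmer probe set gave -0.22 ± 0.056 averaged over media (adjusted p = 0.0117) and -0.28 ± 0.076 in serum (adjusted p = 0.0263), but its averaged value was -0.03 with the deposited values (adjusted p = 0.763) and -0.06 after scaling to a common array median (adjusted p = 0.496). Its call in serum was lost in 6 of 18 settings, among them with the deposited values (-0.10, adjusted p = 0.477), after scaling to a common array median (-0.13, adjusted p = 0.353) and without either Rb-null serum array (adjusted p = 0.135 and 0.158). Without serum neither probe set passed, and the dimmer changed sign under both of those scalings. Withdrawal values lay between -0.07 and 0.12 for both probe sets in both lines, none past the threshold.

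Tpi1, triosephosphate isomerase, read 5225 and 4358 in Rb-null cells without serum and 5694 and 5370 with serum, against 4299 and 4419 in wild-type cells without serum and 5968, 6045 and 6006 with serum. As for Ldha, every array without serum lay below every array with serum. Tpi1 fell by 0.46 ± 0.074 on withdrawal in the wild-type line (adjusted p = 0.00281), in all 18 settings, while the Rb-null value was -0.21 ± 0.081 (adjusted p = 0.136) and the interaction 0.25 ± 0.11 (adjusted p = 0.453). The Rb-null value ran from -0.35 to -0.08 over 18 settings and passed with the deposited values (-0.32, adjusted p = 0.0385) and without the first Rb-null serum-free array (-0.35, adjusted p = 0.0187). Its averaged difference between the lines was 0.01 (adjusted p = 0.939). Pgk1, phosphoglycerate kinase, which makes the first ATP of the pathway's pay-off stage, read 5676 and 4721 in Rb-null cells without serum and 5627 and 5944 with serum, against 4640 on both wild-type arrays without serum and 5297, 5627 and 5412 with serum. The serum-free wild-type arrays lay below the wild-type serum arrays, and the Rb-null groups overlapped. Pgk1 passed in no comparison: withdrawal gave -0.16 ± 0.084 in Rb-null cells (adjusted p = 0.299) and -0.23 ± 0.076 in wild-type cells (adjusted p = 0.0753), and the averaged difference between the lines was 0.12 ± 0.057 (adjusted p = 0.105). The last became 0.29 (adjusted p = 0.00256) with the deposited values and 0.26 (adjusted p = 0.00484) after scaling to a common array median. Under the values as deposited the averaged difference also passed for Ldha (0.19, adjusted p = 0.0187), Slc2a1 (0.23, adjusted p = 0.00987) and Tpi1 (0.18, adjusted p = 0.036). After scaling to a common array median it passed for Ldha (0.16, adjusted p = 0.0414) and Slc2a1 (0.20, adjusted p = 0.0215) too.

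**Figure D4:**
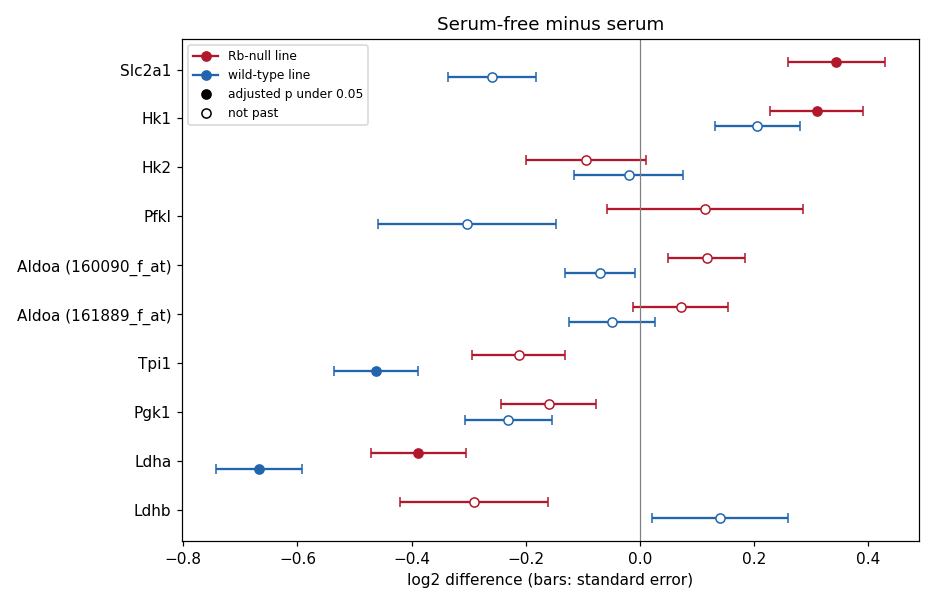
Log2 difference of serum-free minus serum cultures for the 10 tested member probe sets (horizontal axis, log2 units, bars for the SE), in the Rb-null and in the wild-type line, filled where the adjusted p was under 0.05. Ldha is filled on the lower side in both lines (-0.39 and -0.67), Tpi1 on the lower side in the wild-type line, and Slc2a1 lies at 0.34 in the Rb-null and -0.26 in the wild-type line.

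Across the 9 arrays the members fell into patterns, given here as descriptions since the arrays share lines and media. Ldha correlated with Tpi1 at r = 0.97 and with Pgk1 at 0.86, Ldhb with Hk2 at 0.96 and with the brighter Aldoa probe set at 0.83, and that probe set with Pfkl at 0.92. Ldha and Ldhb had r = -0.03, and Hk1 and Hk2 had r = -0.75. Among 925 named probe sets above the floor on all arrays that spanned at least 1 log2 unit, those most like Ldha were Srsf1 (r = 0.98), Lats2 (0.97), Lbr (0.97) and Trim59 (0.97), and those most opposite were Pdcd4 (-0.95) and Atf5 (-0.95). Srsf1 encodes a splicing factor, Lats2 a kinase of the Hippo pathway and Lbr the lamin B receptor. On withdrawal they changed by -0.56, -0.52 and -0.83 in Rb-null cells and -0.95, -0.92 and -1.19 in wild-type cells. Those most like Ldhb were Rhoc (0.99), Ptpn13 (0.99), Plac8 (0.99) and a probe set annotated to Mir686 (0.99), and those most opposite were B2m (-0.99), which encodes beta-2 microglobulin, and Rab31 (-0.99). Averaged over media Rhoc differed by -1.56 between the lines and B2m by 1.99.

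The other genes of glucose metabolism were taken from lists of known pathway members. Of 11 other glycolysis enzymes tested, 1 was higher and 3 lower in the Rb-null line averaged over media, 36.4% of the list against 45.2% of all probe sets, and the list's median was -0.11 against -0.05 over all probe sets. Bpgm, which makes 2,3-bisphosphoglycerate, was higher by 0.35 ± 0.11 (adjusted p = 0.0304). The lower genes were the pyruvate kinase genes Pklr (-0.40, adjusted p = 0.00333) and Pkm (-0.11, adjusted p = 0.0485) and the enolase gene Eno2 (-0.20, adjusted p = 0.035). The Pklr call held in all 17 settings, while that of Bpgm was lost in 9 of them (values of 0.05 to 0.43), that of Pkm in 13 and that of Eno2 in 10. On withdrawal in wild-type cells only the phosphoglycerate mutase gene Pgam1 of these 11 passed, and it fell by 0.40 ± 0.064 (adjusted p = 0.00286), the direction that Ldha and Tpi1 took. None of the 11 passed on withdrawal in Rb-null cells by its brightest probe set. Pkm was at -0.20 there (limma adjusted p = 0.0532), and its other probe set passed, at -0.30 (limma adjusted p = 0.0440). Of 5 transporter genes 2 passed averaged over media (45.2% of all probe sets did), both lower in the Rb-null line: Bsg, the chaperone of lactate transporters, and Slc2a3, the glucose transporter GLUT3, at -0.18 (adjusted p = 0.0185) and -0.14 (adjusted p = 0.0462), but the Slc2a3 call was lost in 12 of 17 settings and the Bsg call in 6, where Bsg was at 0.0054 with the deposited values. The lactate transporter gene Slc16a1 fell on withdrawal in both lines, at -0.38 in Rb-null cells (adjusted p = 0.0264) and -0.55 in wild-type cells (adjusted p = 0.00259). It was at the floor on all 4 arrays without serum, so both values are lower bounds of the size of the fall. The Rb-null call of Slc16a1 was lost in 7 of 16 settings and the wild-type call in none. Bsg rose by 0.29 on withdrawal in Rb-null cells (adjusted p = 0.0301), a call lost in 10 of 18 settings. Between the lines, Pklr was lower in serum (-0.34, adjusted p = 0.0458) and without serum (-0.46, adjusted p = 0.0178), and Bsg in serum (-0.25, adjusted p = 0.0292).

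Among 10 tested genes for the mitochondrial fate of pyruvate, 4 were higher and 1 lower in the Rb-null line averaged over media, 50.0% of the list against 45.2% of all probe sets, with a list median of 0.13 against -0.05 over all probe sets. The pyruvate dehydrogenase genes Pdha1 (0.28 ± 0.044, adjusted p = 0.000887) and Pdhb (0.46 ± 0.082, adjusted p = 0.00186) were higher, and Pcx, pyruvate carboxylase, was lower (-0.21, adjusted p = 0.0229, a call lost in 6 of 16 settings). Dlat, the E2 subunit of the same complex, gave 0.24 (adjusted p = 0.0126) by its brighter probe set and -0.35 (adjusted p = 0.00797) by its other one, so its direction is not settled. Without serum Pdhb was higher by 0.72 ± 0.12 (adjusted p = 0.00281) and Pdha1 by 0.37 ± 0.065 (adjusted p = 0.00347). In serum Pdha1 was at 0.20 (adjusted p = 0.0359) and Pcx at -0.29 (adjusted p = 0.0405). On withdrawal Pdha1 rose by 0.29 in Rb-null cells (adjusted p = 0.0147, lost in 6 of 18 settings). In wild-type cells Pck2, the mitochondrial phosphoenolpyruvate carboxykinase gene, rose by 0.38 (adjusted p = 0.0372, lost in 9 of 18), and Pdk3, a kinase that inhibits pyruvate dehydrogenase, was lower at -0.52 (adjusted p = 0.0482, lost in 12 of 18). The same Pck2 probe set gave 0.35 in Rb-null cells (limma adjusted p = 0.0808). The other Pck2 probe set rose in both lines, by 0.64 in Rb-null cells (limma adjusted p = 0.00227) and 0.35 in wild-type cells (adjusted p = 0.0223).

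Of 7 genes for moving cytosolic NADH into mitochondria 2 were higher and 3 lower averaged over media, 71.4% of the list against 45.2% of all probe sets. Gpd2, the mitochondrial glycerol-3-phosphate dehydrogenase, was higher by 0.93 ± 0.076 (adjusted p = 2.27e-05) by a probe set that can hybridise to related transcripts, and Mdh2, mitochondrial malate dehydrogenase, by 0.28 ± 0.040 (adjusted p = 0.000555). Their cytosolic partners Gpd1 (-0.28, adjusted p = 0.0173) and Mdh1 (-0.21, adjusted p = 0.035) were lower, as was the mitochondrial aminotransferase gene Got2 (-0.43, adjusted p = 0.0109), whose other probe set gave -0.05 near the floor. The Mdh1 call was lost in 10 of 17 settings, that of Gpd1 in 5 and that of Got2 in 1. In serum Gpd2 was higher by 0.90 (adjusted p = 0.00032) and Mdh2 by 0.20 (adjusted p = 0.0256). Without serum Gpd2 was higher by 0.95 (adjusted p = 0.000443) and Mdh2 by 0.36 (adjusted p = 0.00226), and Gpd1 (-0.36, adjusted p = 0.0427) and Got2 (-0.48, adjusted p = 0.0495) were lower. None of these 7 passed on withdrawal in either line. Of 5 pentose phosphate genes 2 passed averaged over media (45.2% of all probe sets did): the lactonase gene Pgls (-0.45 ± 0.067, adjusted p = 0.000699) and the transketolase gene Tkt (-0.28 ± 0.048, adjusted p = 0.00157) were lower in the Rb-null line. The averaged Tkt call was lost with the deposited values (-0.10, adjusted p = 0.2) and after scaling to a common array median (-0.13, adjusted p = 0.107). Both genes were also lower in serum, Pgls at -0.46 (adjusted p = 0.00651) and Tkt at -0.22 (adjusted p = 0.0367), and without serum, Pgls at -0.45 (adjusted p = 0.00948) and Tkt at -0.34 (adjusted p = 0.00768). On withdrawal the transaldolase gene Taldo1 rose by 0.45 in Rb-null cells (adjusted p = 0.013, lost in 3 of 18 settings), and Tkt by 0.22 in wild-type cells (adjusted p = 0.0476, lost in 14 of 18).

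**Figure D5:**
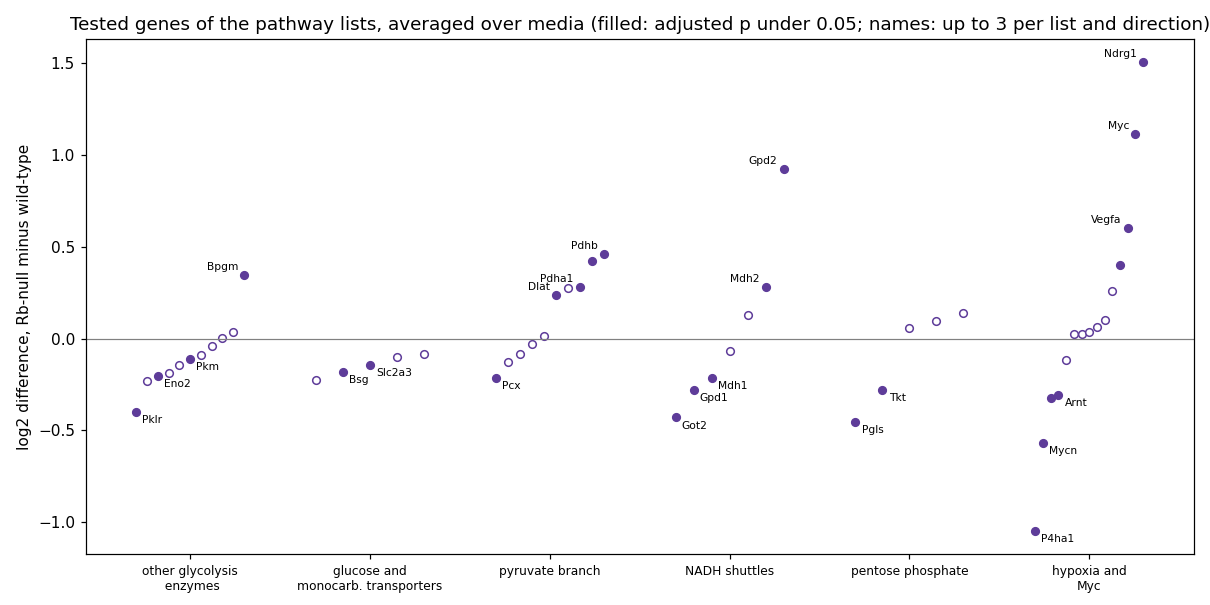
Log2 difference between the lines, Rb-null minus wild-type, averaged over media (vertical axis, log2 units) for each tested gene of 6 pathway lists, sorted within a list along the horizontal axis, filled where the adjusted p was under 0.05 and named for up to 3 genes per list and direction. Ndrg1 (1.51), Myc (1.12) and Gpd2 (0.93) lie highest and P4ha1 (-1.05) lowest.

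The regulators and targets of the hypoxia response and the Myc genes moved in both directions. Of 15 tested, 4 were higher and 4 lower in the Rb-null line averaged over media, 53.3% of the list against 45.2% of all probe sets. Ndrg1, a hypoxia-inducible gene, was higher by 1.51 ± 0.052 (adjusted p = 9.81e-08), Myc by 1.12 ± 0.14 (adjusted p = 0.000328) and Vegfa, the angiogenic factor, by 0.60 ± 0.14 (adjusted p = 0.00829), a size that ran from 0.38 to 0.72 over 16 settings and was smallest with the floor at percentile 40. P4ha1, a collagen prolyl hydroxylase and hypoxia target, was lower at -1.05 ± 0.11 (adjusted p = 9.11e-05), Mycn at -0.57 (adjusted p = 0.000421) and Arnt, the partner of HIF-1 alpha, at -0.31 (adjusted p = 0.00358). On withdrawal in wild-type cells Hif1a fell by 0.40 ± 0.080 (adjusted p = 0.00871) and Myc by 0.78 ± 0.19 (adjusted p = 0.0248). Ndrg1 rose there by 0.79 ± 0.070 (adjusted p = 8.78e-05) and P4ha2, another prolyl hydroxylase gene, by 0.24 (adjusted p = 0.0421). The P4ha2 call was lost in 14 of 18 settings, that of Myc in 4 and that of Hif1a in 2. On withdrawal in Rb-null cells Ndrg1 rose by 1.38 ± 0.077 (adjusted p = 7.75e-06) and Vegfa by 1.27 ± 0.21 (adjusted p = 0.00403, values of 0.75 to 1.51). In that line, where Ldha also fell, no gene of this list was called lower. Hif1a was at -0.0125 (limma adjusted p = 0.979) and its other probe set at -0.0093 (adjusted p = 0.9921). A link of these genes to the falls of Ldha and Tpi1 was not tested. Between the lines in serum, Ndrg1 was higher by 1.21 (adjusted p = 4.92e-06) and Myc by 0.69 (adjusted p = 0.0307), and P4ha1 (-1.05, adjusted p = 0.00102), Mycn (-0.56, adjusted p = 0.00443) and Arnt (-0.40, adjusted p = 0.00821) were lower. Without serum, Ndrg1 was higher by 1.80 (adjusted p = 1e-06), Myc by 1.54 (adjusted p = 0.000989) and Vegfa by 1.21 (adjusted p = 0.0032). There P4ha1 (-1.05, adjusted p = 0.00166), Mycn (-0.58, adjusted p = 0.00576) and the HIF prolyl hydroxylase gene Egln2 (-0.46, adjusted p = 0.0289) were lower. Of the single-medium calls of list genes, those in serum were lost in 11 of 18 settings for Pklr and Tkt, 8 for Bsg and Myc and 6 for Pdha1 and Mdh2, and in 9 of 17 for Pcx. The serum calls were also lost in 3 of 18 settings for Pgls and in 1 for Mycn and for Arnt. Those without serum were lost in 11 of 18 settings for Got2, 10 for Gpd1, 8 for Egln2, 5 for Pklr, 4 for Tkt and for Pgls and 1 for Mycn. Ndrg1 was the 1 gene of all 6 lists with an interaction past the threshold (0.59 ± 0.10, adjusted p = 0.0395), and its other probe set gave 0.39 (adjusted p = 0.254). This interaction call was lost in 11 of 17 settings, with an adjusted p of up to 0.22.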

How the data were processed

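Total RNA of 9 samples was measured on single-channel arrays, 1 array per sample. The authors deposited linear intensity values per probe set. The summary method, scaling and genome build behind them were not given in the sources used here. No column was left unmapped. Because upper quartiles differed by 0.219 log2 units between arrays, over the limit of 0.1, values were quantile normalized, raised to a floor of 197 (percentile 25 of all values) and taken to log2. A probe set was tested if at least 2 arrays read above the floor, which left 9686 for 7063 genes. Symbols came from the platform annotation: 10832 probe sets had 1 gene, 396 several (not used) and 1193 none. Gapdh and Eno1 were not analysed here. Control probe sets for RNA quality were not used here. The members, pathway lists and tests were chosen with earlier results of these data known.

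Group means were fitted with limma 3.58.1 (R 4.3.3) on all 9 arrays with an intensity trend and with degrees of freedom of 5 (residual) and 4.20 (prior). Two-sided p-values were adjusted over all tested probe sets by the Benjamini-Hochberg method, with a threshold of 0.05. The procedure was tested on simulated data. The number of arrays limits the precision. Every member probe set is reported. From each list up to 3 genes per direction with the smallest adjusted p are named per comparison, each by its brightest tested probe set. The genes most like Ldha or Ldhb are the 4 highest and 2 lowest Pearson correlations over 9 arrays. Alternatives were other scalings, floors, filters and variance models, a replicate block, only the groups compared, and each array left out. Those for the lists were added after seeing the data. Promoter windows were read from RefSeq GRCm38.p6 with Python 3.11.15, and motif matches were counted in the windows of all 9 measured genes.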

Additional observations from a re-analysis of the deposited data

Results flagged for a closer look

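The arrays of Slc2a1 lay on opposite sides on serum withdrawal in the 2 lines, higher without serum in Rb-null cells and lower without serum in wild-type cells, with no overlap between media. The difference of the responses, Rb-null minus wild-type, was 0.60 log2 and did not pass the test (adjusted p = 0.0524 over all probe sets), nor did the wild-type change alone (adjusted p = 0.0526). For Ndrg1, which rose in both lines, the same difference was 0.59 and passed (adjusted p = 0.0395). That call was lost in 11 of 17 alternative settings, with an adjusted p of up to 0.22, and the other Ndrg1 probe set gave 0.39 (adjusted p = 0.254).

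For 4 list genes, as for Slc2a1, the arrays moved one way in the Rb-null line and the opposite way in the wild-type line without the difference passing the test. The difference was 0.51 for Pdhb (adjusted p = 0.255), 0.36 for the phosphofructokinase gene Pfkp (adjusted p = 0.377), 0.16 for Mdh2 (adjusted p = 0.505) and -0.12 for Slc2a3 (adjusted p = 0.689). The other Slc2a3 probe set went the reverse way, at 0.08 in Rb-null and -0.08 in wild-type cells (limma adjusted p = 0.6776 and 0.4982). The direction for Slc2a3 is therefore not settled. This pattern of opposite moves was looked for in the tested members and the genes of the pathway lists. Its share over all probe sets was not computed, so the count is not read as a trait of these genes.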

How the results depend on the processing

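Over the alternatives, 941 of 1060 values of single member probe sets kept their direction and their side of the threshold, 48 lost a call, 46 gained one and 25 changed sign. Of 1173 values of the list genes named with a call, 899 kept it, 273 lost it and 1 changed sign. The cause of these changes was not tested. The Ldhb genotype calls, the averaged Hk2 call, the brighter Aldoa probe set's calls and the wild-type withdrawal calls of Ldha and Tpi1 held throughout. With the deposited values, and after scaling to a common array median, the in-serum line difference became 0.0561 and 0.0305 for Ldha and 0.0643 and 0.0387 for Tpi1, that of the dimmer Aldoa probe set without serum 0.0479 and 0.0115, and the Pgk1 interaction -0.0015 and -0.0123. As deposited, Rb-null withdrawal gave -0.0201 and -0.0029 for the Aldoa probe sets, and the averaged Bsg difference was 0.0054. The count of members past the threshold, with the share of all probe sets under the same setting, became 7 as deposited for the line difference without serum (29.0%). For withdrawal in Rb-null cells it became 1 with no filter (8.49%) and 0 with only the groups compared (13.1%), and in wild-type cells 4 as deposited (14.2%) and 4 with a common median (13.0%). For the interaction it became 1 under both (0.67% and 0.69%) and 1 with the floor at percentile 40 (1.61%).

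Leaving out 1 array at a time, the counts ran from 2 (of all probe sets 9.08%) to 7 (45.3%) for the line difference in serum, 1 (12%) to 5 (21.1% and 51.6%) without serum, 0 (5.15% and 6.65%) to 4 (8.22% and 23.6%) for withdrawal in Rb-null cells, 2 (6.91% to 15.8%) to 4 (20.3%) in wild-type cells and 0 (0.124% to 0.611%) to 1 (2.64%) for the interaction. Each upper end was reached without the first wild-type serum array, where 6074 probe sets passed averaged over media, against 4377. The line difference of Tpi1 ran from -0.0599 to 0.0721 averaged and from -0.0008 to 0.27 without serum, that of Pfkl without serum from -0.61 to 0.0011, Rb-null withdrawal from -0.0254 to 0.1695 for the dimmer Aldoa probe set and from -0.19 to 0.42 for Pfkl, wild-type withdrawal from -0.1235 to 0.0242 for that Aldoa probe set and from -0.1241 to 0.0396 for Hk2, and the interaction from -0.0642 to 0.2039 for Pgk1 and from -0.1343 to 0.0319 for Hk2. The change of the Ldha minus Ldhb difference ran from 2.24 to 2.70 between the lines without serum, from -0.34 to 0.13 for withdrawal in Rb-null cells and from 0.48 to 0.94 for the interaction.

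The deviations of same-numbered arrays from their group means correlated at r of -0.23 to 0.33 over 12 pairs, 2 of them over 0.1. In a group of 2 arrays the deviations mirror each other, so the pairs are not separate readings. Whether same-numbered arrays belong together is therefore not settled. With the replicate number as a block, 3689 probe sets passed averaged over media, and Hk2 withdrawal in wild-type cells was 0.0395. Signals near the floor limit what the second Ldhb and Hk2 probe sets can show.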
